A study of Mus musculus with 6 samples.

Results

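The 2 mature arms of the microRNA miR-22, mmu-miR-22-3p and mmu-miR-22-5p, were followed in whole kidney of male C57BL/6 mice at 20 and 2 months of age. The arms were taken by name, as the array entries carrying exactly these 2 names among the 1247 mouse miRNAs on the array, and both passed the detection filter that left 193 miRNAs for testing. A group of 3 arrays was hybridised with RNA of 20-month-old kidney, and a group of 3 arrays with RNA of 2-month-old kidney. All 6 arrays share strain, sex and tissue, and neither group carried a transgene or received a treatment that the labels name. The series compared miRNA content between youth and old age, with separate RNA preparations in triplicate. The labels do not link a preparation to an animal, so the p-values measure the spread between these preparations, which may be partly technical.

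A miRNA hairpin is cut into a short duplex, of which 1 strand is usually kept as the guide in an Argonaute protein and pairs through its seed, bases 2 to 8, with target mRNAs. In miR-22 the guide is mostly the 3p arm, and the 5p arm is the strand that is mostly discarded. miR-22 is known to repress Sirt1 and Cdk6 among others, to be induced by p53, to rise in senescent human fibroblasts and in the ageing mouse heart, and to take part in renal fibrosis through bone morphogenetic proteins. Whether its kidney level moves with age is the question that the comparison of the 2 ages addresses for this miRNA.

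Both arms come from 1 gene, Mir22, which lies on the forward strand of chromosome 11 (RefSeq on GRCm38.p6, chr11:75463716-75463810) inside the span of the long non-coding host gene Mir22hg. Its exon structure was not used here. The hairpin of 95 bases is shown to place the arms, with both in capitals (5p first, 3p second):
Mir22 hairpin: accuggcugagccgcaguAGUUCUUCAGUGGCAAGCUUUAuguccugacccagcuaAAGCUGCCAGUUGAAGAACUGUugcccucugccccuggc
The 5p arm spans bases 19 to 40 of the hairpin and the 3p arm bases 57 to 78, with 16 bases between them. In the minimum free energy fold of RNAfold (-41.9 kcal per mol), 19 of the 22 bases of the 5p arm were paired with bases of the 3p arm.

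The mature sequences are shown with their seeds, bases 2 to 8, in capitals, because the seeds decide what each arm can pair with:
mmu-miR-22-3p: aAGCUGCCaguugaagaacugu
mmu-miR-22-5p: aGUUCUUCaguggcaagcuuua
The seeds differ, so the arms fall into separate target groups, and the reverse complement of the 5p seed stands at bases 13 to 19 of the 3p arm. Of the 1247 array miRNAs, 1017 could be given a RefSeq sequence by name, and 0 of them shared a seed with either arm. The array miRNA closest in sequence to the 3p arm was mmu-miR-3966, at an edit distance of 3, shown with its own bases 2 to 8 in capitals:
mmu-miR-3966: aGCUGCCAgcuguagaacugu
Its 2 probes gave no signal: 0 of their 240 spots over the 6 arrays were well above background, and the probe means lay between -7.37 and -1.64 intensity units. Among the sequences compared, the closest to the 5p arm stood at an edit distance of 8.

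Intensity is the fluorescence of a spot after the scanner software removed background. Each arm was read by 2 probes with 20 spots each. Of the 240 spots of mmu-miR-22-3p over the 6 arrays, 232 were kept after outlier spots were left out, and all 232 were well above background. Of the 240 spots of mmu-miR-22-5p, 224 were kept and 223 of them were well above background. Negative control spots had a median of 2.30 to 3.23 units and a 99th percentile of 14 to 24.7 units, while the dimmer probe of mmu-miR-22-5p averaged 66.1 to 127.4 units. Both arms were therefore measured on every array, and 0 spots on any array were saturated.

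The 75th percentile of detected probes, by which each array was scaled, ranged 1.75-fold between arrays, and the number of arrays limits the precision. Arrays fell into 2 slide rows, inferred from the scanned position of their first row of spots. Row 1 held all 2-month arrays and 20-month array 1, and row 2 held 20-month arrays 2 and 3. Over the 193 miRNAs 20-month array 1 correlated at 0.991 to 0.993 with the 2-month arrays, and at 0.983 and 0.972 with 20-month arrays 2 and 3. All 7 kidney epithelial marker miRNAs were detected on every array. Striated muscle is rich in miR-22. Of its 7 marker miRNAs, 6 were well above background on no array, and miR-1a-3p on 2 arrays of each age.

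The guide arm, mmu-miR-22-3p, did not differ detectably between 20-month and 2-month kidney. In bulk RNA fewer cells of a type and less RNA per cell cannot be told apart, which holds for every level given here. Its summed intensity was 8528, 16016 and 10645 units on the 20-month arrays, against 11106, 9662 and 9242 units on the 2-month arrays. After scaling it stood at 2.86, 2.96 and 3.05 (log2) on 20-month arrays 1, 2 and 3, against 2.97, 3.01 and 2.96 on the 2-month arrays. The brightest raw array was also the one with the highest scale, and on the scaled values the 20-month arrays lay on either side of the 2-month ones.

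The scaled level averaged 2.96 ± 0.09 in 20-month kidney and 2.98 ± 0.03 in 2-month kidney (log2, SD, n = 3 each). The difference, 20-month minus 2-month, was -0.02 ± 0.08 (SE) with a 95% interval of -0.21 to 0.17, which as a fold runs from 0.87 to 1.12 (limma adjusted p = 0.9). The interval holds for this scaling. Of the 193 tested miRNAs 15 passed the threshold of 0.05 (7.77%), and neither arm of miR-22 was among them. Over the 193 miRNAs the median difference was -0.08, and relative to it mmu-miR-22-3p stood at 0.07. The sign of the unadjusted difference depended on the scaling, since it was 0.12 with the median over detected probes, 0.10 in the authors' processed values, 0.18 without scaling and 0.39 with the percentile over all probes.

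Arrays of the same age gave close values for mmu-miR-22-3p. Its SD within groups was 0.07 (log2), the 15th smallest of the 193 tested miRNAs, whose median was 0.12. The SE over the kept spots was 0.01 to 0.03 per probe and array. The SD between arrays was 0.09 in 20-month kidney and 0.03 in 2-month kidney.

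**Figure D1:**
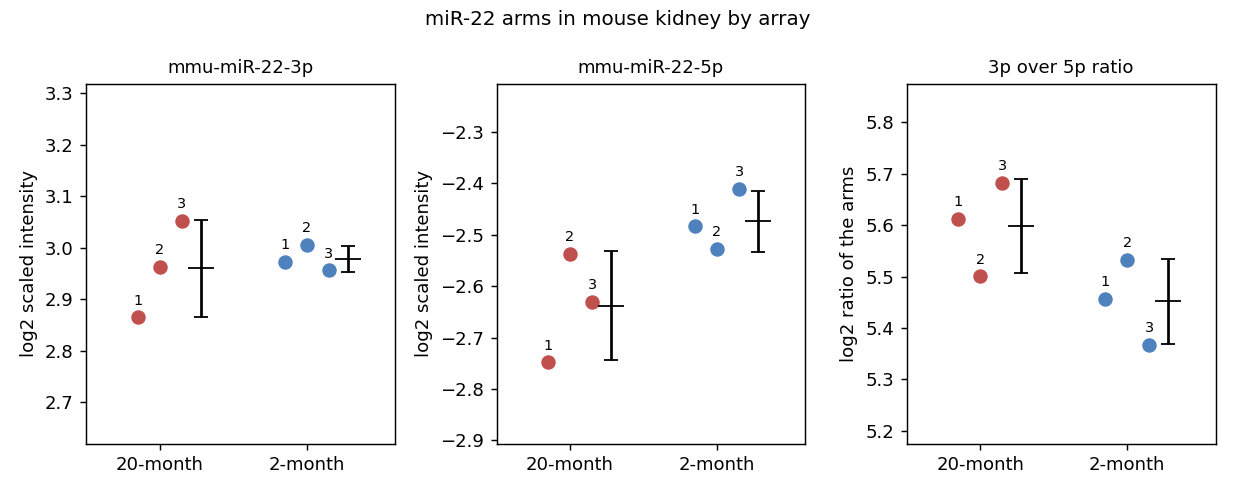
Levels of both miR-22 arms (left and middle, log2 scaled intensity) and their 3p over 5p ratio (right, log2) on each array, with 20-month kidney in red left of 2-month kidney in blue. Numbers are array numbers, and the black mark with its bar is the mean ± SD (n = 3). The 3p values overlap around 2.97, every 20-month 5p value lies below every 2-month one, and the ratios overlap.

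After scaling, the summed level of the passenger arm, mmu-miR-22-5p, was lower on every 20-month array than on any 2-month array. The margin did not pass the test. The summed intensity of mmu-miR-22-5p was 174, 354 and 207 units on the 20-month arrays, against 253, 209 and 224 units on the 2-month arrays. After scaling it stood at -2.75, -2.54 and -2.63 (log2) on 20-month arrays 1, 2 and 3, against -2.48, -2.53 and -2.41 on the 2-month arrays. The groups did not overlap after scaling, though 20-month array 2 came within 0.01 of 2-month array 2. Non-overlap in either direction was found for 59 of the 193 miRNAs (30.6%), so that this order of the arrays was common.

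The scaled level of mmu-miR-22-5p averaged -2.64 ± 0.11 in 20-month kidney and -2.47 ± 0.06 in 2-month kidney (log2, SD, n = 3 each). The difference was -0.16 ± 0.08 (SE) with a 95% interval of -0.37 to 0.04, or 0.77 to 1.03 as a fold (limma adjusted p = 0.27). An exact two-sided permutation test over the 6 arrays gave p = 0.1, the smallest that 3 against 3 allows. Relative to the median of all tested miRNAs it stood at -0.08, and its sign turned without scaling (0.038) and with the percentile over all probes (0.25).

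Both probes of each arm were read separately, since they bind the same RNA. For mmu-miR-22-3p, probe A_54_P1309 averaged 1.39 in both 20-month and 2-month kidney (log2 scaled), and probe A_54_P1310 averaged 2.37 in 20-month and 2.39 in 2-month kidney. For mmu-miR-22-5p, probe A_54_P3450 averaged -4.10 ± 0.08 in 20-month and -3.92 ± 0.04 in 2-month kidney (SD, n = 3 each), and probe A_54_P3451 averaged -3.29 ± 0.13 in 20-month and -3.14 ± 0.07 in 2-month kidney. The 2 probes of an arm thus gave like differences, -0.00 and -0.03 for the 3p arm and -0.19 and -0.15 for the 5p arm. These differences share arrays and scaling and are a description of the same samples. For the 5p arm the groups did not overlap on A_54_P3450. On A_54_P3451 they did, since 20-month array 2 (-3.18) lay above 2-month array 2 (-3.20).

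**Figure D2:**
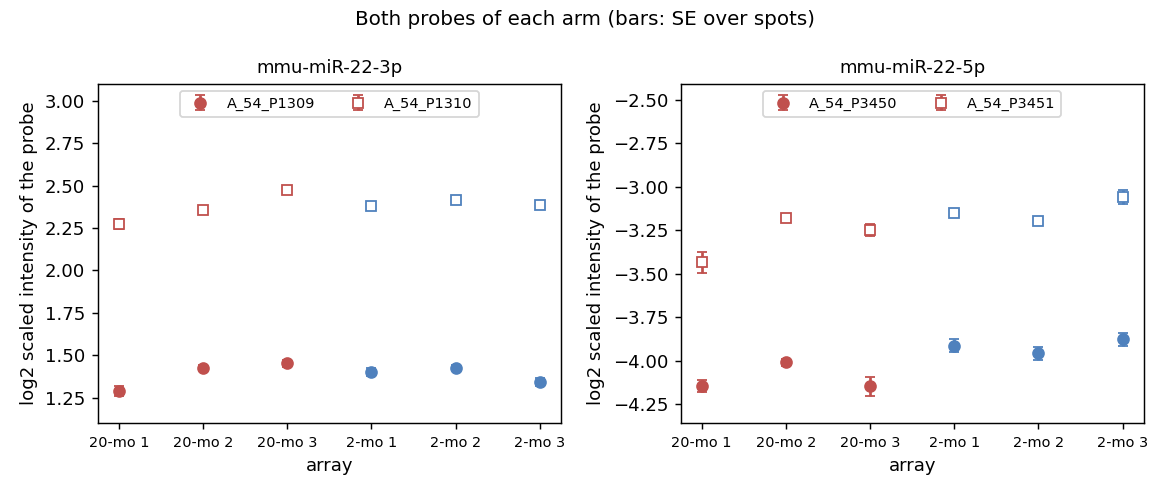
Log2 scaled intensity of the 2 probes of each arm (filled circles and open squares) on the 6 arrays, with 20-month arrays in red left of 2-month arrays in blue. Bars are the SE over the kept spots of a probe. The gap between the 2 probes of an arm ran from 0.93 to 1.04 for the 3p arm and from 0.71 to 0.90 for the 5p arm. 20-month array 1 is the lowest array for every probe except A_54_P3450, where 20-month array 3 is as low.

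Both arms were also read by slide row, which is not balanced between the ages. In row 1, where 20-month array 1 stands beside the 2-month arrays, it lay below their mean by more than the other 20-month arrays did: mmu-miR-22-3p at -0.11 and mmu-miR-22-5p at -0.27 against the 2-month mean. With slide row as a block these were also the age differences, with limma adjusted p = 0.707 for the 3p arm and 0.284 for the 5p arm. In row 2, which holds 20-month arrays only, mmu-miR-22-3p stood at -0.01 and 0.07 and mmu-miR-22-5p at -0.06 and -0.16 against the same mean. Without 20-month array 1 the 5p difference was -0.11 and the 3p difference 0.030. The part of the slide row in these values was not tested.

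The ratio of the arms was compared because both arms come from 1 hairpin and the ratio removes the scaling of an array. Its absolute size mixes how well the probes of each arm bind and is not a ratio of molecules, so only its change was read. The log2 ratio of 3p over 5p was 5.61, 5.50 and 5.68 on 20-month arrays 1, 2 and 3, against 5.46, 5.53 and 5.37 on the 2-month arrays. The groups overlapped, since 20-month array 2 lay below 2-month array 2.

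The ratio averaged 5.60 ± 0.09 in 20-month kidney and 5.45 ± 0.08 in 2-month kidney (log2, SD, n = 3 each). It differed by 0.15 ± 0.07 (SE), a 1.11-fold higher ratio at 20 months, with a 95% interval of -0.02 to 0.31. Over the 12 hairpins whose 2 arms were both tested, 0 passed the limma test of the ratio (0%), and 0 had an unadjusted p under 0.05. For miR-22 the limma adjusted p was 0.463, and an exact two-sided permutation test over the 6 arrays gave p = 0.2. Quantile normalization, which can move the 2 arms apart, gave a difference of -0.032 in place of 0.15, and the 3 settings that only rescale whole arrays left it at 0.15.

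Set among the other hairpins, miR-22 had the smallest p for a change of ratio without passing the threshold. miR-142, from cells of the blood lineage, came second at 0.08 ± 0.04 and was the single hairpin of the 12 whose groups did not overlap (8.33%). Next came miR-193a at -0.38 ± 0.23, with limma adjusted p = 0.463 for both. The median change over the 12 hairpins was 0.01, and the 2 arms differed between ages in the same direction in 11 of the 12. miR-22 was among these 11 under the scaling used here, but its arms took opposite signs with the median over detected probes (0.12 for 3p, -0.02 for 5p), in the authors' processed values (0.10 and -0.05) and relative to the median of all miRNAs (0.07 and -0.08). The SD of the miR-22 ratio within groups, 0.09 (log2), was the 7th smallest of the 12.

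**Figure D3:**
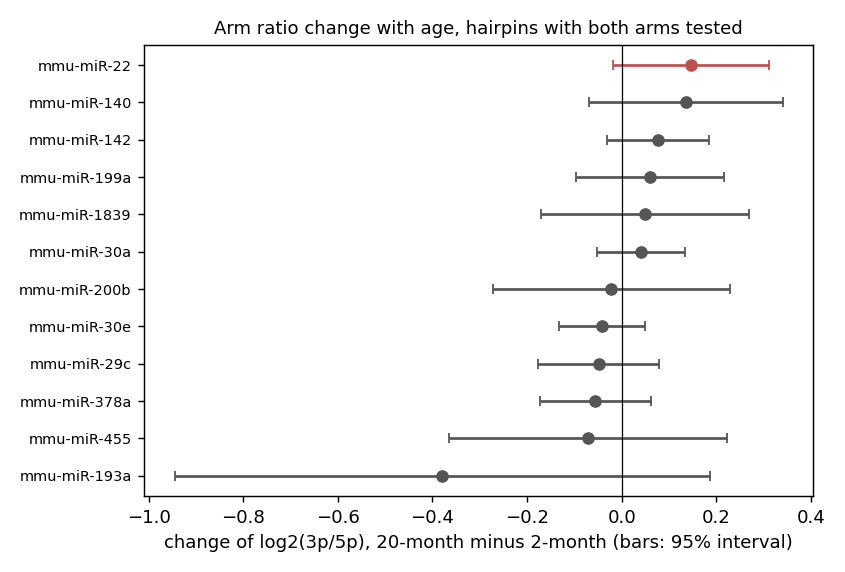
Change of the log2 ratio of 3p over 5p, 20-month minus 2-month kidney, for the 12 hairpins with both arms tested. Points are limma estimates and bars their 95% intervals, with miR-22 in red at 0.15. Every interval includes 0.

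The scaled levels of the 2 arms correlated over the 6 arrays with Pearson's r = 0.36 (exact permutation p = 0.482) and Spearman's rho = 0.03 (exact permutation p = 1), the single relation of this kind tested. Without 20-month arrays 1 and 3, the 2 arrays farthest from the median of the 3p arm, r was -0.56. Within the 20-month arrays alone r was 0.58. Either choice leaves too few arrays to settle the sign of the relation. The same r had a median of 0.93 over the 12 hairpins, among which miR-22 ranked 11th. This r pools both ages, so an age difference shared by the 2 arms of a hairpin raises it. The age difference of mmu-miR-22-3p was only -0.02. The part of age in the rank was not tested.

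The miRNAs most like each arm over the 6 arrays were taken by Pearson's r on the scaled levels of the other 192 tested miRNAs. For mmu-miR-22-3p these were miR-17-5p (r = 0.90), miR-93-5p (0.80) and miR-7a-5p (0.79), and the least like was miR-27a-3p (-0.78). miR-17-5p was near the floor of the scale, at -5.08, -4.83 and -4.69 on the 20-month arrays and -4.94, -4.79 and -4.79 on the 2-month arrays. For mmu-miR-22-5p they were miR-106b-5p (r = 0.99), miR-219-5p (0.97) and miR-200a-3p (0.97), and the least like was miR-139-5p (-0.87). The 5p arm ranked 60th in likeness to the 3p arm, and the 3p arm 76th in likeness to the 5p arm.

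Of these, miR-17-5p, miR-93-5p and miR-106b-5p share 1 seed, shown in capitals, which 5 of the 193 tested miRNAs carry:
mmu-miR-17-5p: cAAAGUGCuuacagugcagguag
mmu-miR-93-5p: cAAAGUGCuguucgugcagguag
mmu-miR-106b-5p: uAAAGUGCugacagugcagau
miR-106b-5p stood at -0.65, -0.45 and -0.54 on the 20-month arrays, against -0.43, -0.49 and -0.38 on the 2-month arrays, with the same low 20-month array 1 and high 2-month array 3 as mmu-miR-22-5p. Its age difference was -0.12 ± 0.08 (limma adjusted p = 0.393). All these correlations share 6 arrays and their scaling and describe these arrays only.

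Among 15 other miRNAs linked to senescence or p53, 11 were tested, 4 rose in 20-month kidney and 0 fell, with a median difference of 0.24 beside -0.08 for all tested miRNAs. Of all 193 tested miRNAs 8 rose (4.15%) and 7 fell (3.63%). The list was chosen with earlier results of these data known, so its counts and median are a description and not a test. The 4 were miR-34a-5p, a direct p53 target at 0.71 ± 0.12, and 3 members of the miR-29 family, which are not separate signals. These were miR-29a-3p, miR-29b-3p and miR-29c-3p, which repress collagens, at 0.63 ± 0.07, 0.68 ± 0.07 and 0.56 ± 0.08. miR-34b-5p, of the same family as miR-34a-5p, stood at -0.05 ± 0.08, miR-107-3p, which p53 induces in human cells, at 0.07 ± 0.09, and miR-24-3p, known to repress p16 in human cells, at 0.02 ± 0.08. miR-145a-5p, raised by p53 in human cells and abundant in smooth muscle, stood at -0.25 ± 0.09 (limma adjusted p = 0.149). Higher without passing were miR-194-5p at 0.28 ± 0.09, miR-146a-5p at 0.24 ± 0.09 and miR-192-5p at 0.14 ± 0.11 (limma adjusted p = 0.104, 0.14 and 0.434). The 4 members not tested, among them miR-34c-5p, miR-217-5p and miR-215-5p, were not well above background on all 3 arrays of either age.

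**Figure D4:**
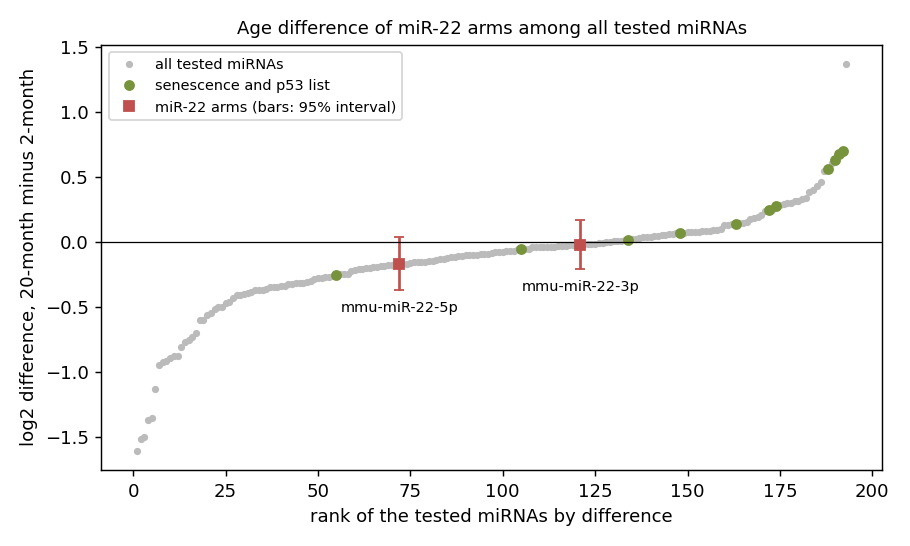
Log2 difference, 20-month minus 2-month kidney, of the 193 tested miRNAs in order of size, with the senescence and p53 list in green and the miR-22 arms as red squares with 95% intervals. mmu-miR-22-5p lies at -0.16 and mmu-miR-22-3p at -0.02, below the 4 list members between 0.56 and 0.71.

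Markers of other cells that whole kidney holds were summed on the same scaled values. Of the 4 tested leukocyte markers and the 2 tested erythroid markers 0 passed by limma. The unadjusted limma p was under 0.05 for 2 of each, beside 49 of all 193 tested miRNAs (25.4%). The leukocyte markers miR-142-3p, miR-142-5p, miR-223-3p and miR-155-5p stood at 0.46, 0.38, 0.55 and 0.32. The erythroid markers miR-451a and miR-144-3p stood at -0.34 and -0.73. The summed scaled level of 5 leukocyte markers was 0.75 to 0.94 in 20-month kidney and 0.59 to 0.68 in 2-month kidney, and that of 2 erythroid markers was 6.31 to 7.11 in 20-month and 8.29 to 9.31 in 2-month kidney. Over the 7 kidney epithelial markers the sum was 23.6 to 26.9 in 20-month and 23.4 to 26.7 in 2-month kidney. The 4 smooth muscle and stromal markers split, with a median difference of 0.02. miR-199a-3p rose (0.40 ± 0.09, limma adjusted p = 0.0391) and miR-214-3p stood at 0.30 ± 0.09, while miR-143-3p stood at -0.27 ± 0.09 and miR-145a-5p at -0.25 ± 0.09, and these 3 did not pass. The sum of the 4 was 2.03 to 2.25 in 20-month and 1.81 to 1.90 in 2-month kidney. This sum mostly follows its brightest member, miR-199a-3p (mean log2 level 0.57 in 20-month and 0.17 in 2-month kidney). The erythroid sum likewise mostly follows miR-451a (2.69 and 3.03). Group ranges that do not overlap were found for 59 of all 193 tested miRNAs (30.6%). The 7 striated muscle markers summed to 0.06 to 0.08 in 20-month and 0.07 to 0.10 in 2-month kidney, with 6 of them detected on no array. The part of these cells in the miR-22 values was not tested.

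The authors' deposited table has its own log2 scale, with array medians of -9.49, -10.10 and -9.20 at 20 months and -9.74, -9.21 and -9.21 at 2 months, and how its arrays were centred is unknown. The authors' deposited table held mmu-miR-22-3p at 5.44, 5.70 and 5.68 on the 20-month arrays and 5.54, 5.53 and 5.46 on the 2-month arrays. The authors' deposited table held mmu-miR-22-5p at -0.17, 0.20 and -0.00 on the 20-month arrays and 0.08, -0.00 and 0.09 on the 2-month arrays. In that table the groups overlapped for both arms. Over 24 alternative settings 0 gave an adjusted p under 0.05 for either arm or for their ratio, with limma adjusted p from 0.149 to 1 over both arms and from 0.154 to 0.823 for the ratio.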

How the data were processed

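Spot intensity, per the file headers, came from Feature Extraction 11.5.1.1 on 1-colour (Cy3) arrays of design 046065, whose build is mm9, corrected for background and not scaled between arrays. The RNA input was 100 ng per the labels' protocols. The other deposited values used, per the file headers, are flags for spots well above background, outliers and saturated spots, and the software's total signal per miRNA. Also deposited by the authors were log2 values, which equalled log2 of that total signal less 1 constant per array (largest departure 1.02e-05 over 1247 miRNAs). How that constant was chosen was not stated in the sources used here.

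Kept spots were averaged per probe. Each array was scaled by the 75th percentile of its 315 commonly detected probes, those with over 50% of kept spots well above background on all 6 arrays, and probes were summed per miRNA. Sums were floored at -5.22 (log2). A miRNA was tested if 1 of its probes was detected in this way on all 3 arrays of either age, which left 193. Age was fitted by limma 3.58.1 in R 4.3.3 (lmFit, eBayes), p-values were adjusted by Benjamini-Hochberg across the 193, and the threshold was 0.05. The arm ratio was fitted likewise over 12 hairpins, paired by name. The procedure was tested on simulated data with independent noise for each miRNA and array. That simulation held no scaling error, no slide row effect and no noise shared by the 2 arms, so it does not cover these. In the normexp alternative (offset 50) the median spot signal replaced the mean signal that had been planned. Sequences came from RefSeq (GRCm38.p6). The hairpin was folded with RNAfold 2.7.2, figures were drawn with matplotlib 3.10.9, and files were read with the R packages data.table (1.17.8) and jsonlite (2.0.0).

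Named miRNAs were both arms, tested list members, for each arm the 3 most and the 1 least correlated miRNAs, the 3 hairpins with the smallest ratio p, and the array miRNA nearest to the 3p arm in sequence, which was added after the data were seen. The 2 arms and the lists were chosen with earlier results of these data known. The values of 1 further list are not reported here. In the stromal list miR-145-5p was taken by hand as the array entry miR-145a-5p, and miR-486-5p, in the erythroid list, was not used here.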

Additional observations from a re-analysis of the deposited data

How the results depend on the processing

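Over the 24 alternatives the 3p difference ran from -0.11 to 0.39, the 5p difference from -0.27 to 0.25 and the ratio difference from -0.03 to 0.20, and 0 of these passed the threshold by limma. The 3p difference changed sign when the percentile was taken over all probes (0.39), when nothing was scaled (0.18), when the detected probes' median was used (0.12) and in the authors' values (0.10), and the 5p difference did so in the first 2 of these (0.25 and 0.038). These scalings raised the median of all tested miRNAs by 0.41, 0.20, 0.14 and 0.11. Relative to that median, over these and quantile normalization, the 3p arm lay between -0.07 and 0.07 and the 5p arm between -0.08 and -0.04. The ratio turned to -0.032 under quantile normalization. The cause was not tested beyond the shift of the median.

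Leaving out 1 array gave -0.064 to 0.030 for the 3p arm (above 0 without 20-month array 1), -0.21 to -0.11 for the 5p arm and 0.10 to 0.20 for the ratio. With the replicate number as a block (replicate block) they were -0.02, -0.16 and 0.15 (limma adjusted p 0.891, 0.309 and 0.494). The numbers did not pair the arrays: same-numbered arrays deviated together at 0.12, -0.58 and 0.31, and 1 of 6 arrays correlated best with its own number. Within slide row 1, a setting chosen after seeing the data, the values were -0.11, -0.27 and 0.16, with the single 20-month array assumed to vary like the 2-month arrays.

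The count of miRNAs past the threshold, 15 (8 higher, 7 lower), was 2 without scaling, 4 with normexp, 8 with total gene signal, 6 without a detection filter, 5 with slide row as a block, 3 with the replicate block and 5 to 39 with 1 array left out: 39 without 20-month array 1, 23 without 3, 9 without 2, and 6, 5 and 8 without 2-month arrays 1, 2 and 3. Higher and lower calls split 7 and 5 with the percentile over all probes, 18 and 3 with the median, 13 and 1 with quantile normalization, 1 and 1 without scaling and 10 and 0 in the authors' values. Without the filter 5 of 422 hairpins passed for the ratio, where limma warned that most variances were 0. With 3 arrays a group the intervals are wide, and they hold for the scaling used.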
